A study of Mus musculus with 12 samples.

Results

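Long interspersed elements (LINEs) were read here as the annotated repeat copies that received direct RNA reads in differentiating P19 cells. The members were all copies to which the deposited per-read table gave the class LINE and at least 1 read with the tail quality tag PASS, which made 1992 copies of 116 families among 13258 repeat copies of any class with PASS reads. Families whose names start with L1Md_ were called young (346 copies of 5 families) and all other families old (1646 copies of 111 families). The young copies held 1638 PASS reads and the old copies 13834, together 15472 of the 45851 PASS reads on repeats (33.7%). The annotated copies fitted the names: the median length of a young copy with reads was 992 bases against 357 for an old copy, and 17.9% of young copies were longer than 5000 bases against 1.22% of old copies.

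P19 is a wild-type mouse embryonal carcinoma line, a teratocarcinoma-derived line that grows undifferentiated in serum and can be induced towards neurons by retinoic acid. Cells were taken before induction (D0) and after 2, 4 and 6 days (D2, D4 and D6) on poly-L-lysine in a serum-free neural medium (NDiff 227) with 500 nM retinoic acid, so that D0 differed from the other days in medium as well as in retinoic acid. Each day had 3 biological replicates, 12 libraries in all, and the replicates of a day carried adapter barcodes 1 to 3 and were sequenced together. Poly(A) RNA was selected with oligo(dT) beads and passed through nanopores as RNA, so that each read gave a position on a transcript or repeat copy as well as an estimate of its poly(A) tail.

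A full LINE-1 (L1) element carries a promoter, 2 open reading frames and a poly(A) signal, and its proteins copy L1 RNA, and at times other cellular mRNAs, back into the genome. Most copies are cut short at the 5′ end or mutated, and such copies are mostly transcribed only as passengers of introns, exons and 3′ ends of other genes. In mouse the L1Md_ families include the A and T families, which still hold mobile copies, and the F families, which are older. The Lx and L1_Mus families are rodent families, the L1M families spread in early mammals, and the L2 families are no L1 at all. Processed pseudogenes, the products of such copying of mRNAs, can lie inside older LINE copies, and a read of the parent mRNA can then align to a contig that bears the name of a repeat.

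The sequences that matter most for these reads are shown before the values. The LINE copy with most reads was Lx3B_dup3459 (mm10 chrX:152907041-152912611), and its reads lay on an annotated processed pseudogene inside it, Gm6472. The first pair of sequences is shown because it is the base difference between Gm6472 and the mRNA of Rps7, a protein of the small ribosomal subunit: 120 bases of the coding stretch, Gm6472 from chrX:152909998-152910117 on the minus strand and bases 111 to 230 of the Rps7 transcript ENSMUST00000074267.4, with the 3 bases that differ in capitals.
Gm6472: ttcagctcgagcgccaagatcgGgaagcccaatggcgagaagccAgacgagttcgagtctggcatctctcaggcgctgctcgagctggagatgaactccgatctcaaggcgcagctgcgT
Rps7: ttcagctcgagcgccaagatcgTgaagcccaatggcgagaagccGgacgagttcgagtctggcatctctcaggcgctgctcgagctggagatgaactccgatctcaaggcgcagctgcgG
The young copy with most reads, L1Md_T_dup18258 (chr13:9832021-9838665), contains the annotated small RNA gene Gm24187 (typed miRNA, minus strand, chr13:9834469-9834525), and its sequence is not shown.
Some other leading copies lie inside exons of long noncoding RNAs. Lx7_dup29484 (chr12:109661512-109661691, plus strand) lies in the last exon of Rian, a maternally expressed noncoding RNA of the imprinted Dlk1-Meg3 domain, and L1ME4b_dup667 (chr7:79532455-79532610, plus strand) lies in an exon of Mir9-3hg, the host transcript of the neural microRNA miR-9. The poly(A) signal AATAAA is in capitals in both. The strand of the host transcript was searched for AATAAA and ATTAAA, which do not overlap each other here.
Lx7_dup29484: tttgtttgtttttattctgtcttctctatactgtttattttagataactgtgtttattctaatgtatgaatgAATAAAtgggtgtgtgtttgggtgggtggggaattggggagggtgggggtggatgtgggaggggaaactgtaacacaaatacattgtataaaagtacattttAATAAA
L1ME4b_dup667: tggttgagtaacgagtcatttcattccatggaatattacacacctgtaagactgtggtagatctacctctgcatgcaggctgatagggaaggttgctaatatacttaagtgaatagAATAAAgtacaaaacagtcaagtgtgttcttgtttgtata
Of annotated transcript ends of the same length, 41.3% (180 bases) and 40.2% (156 bases) hold either signal, so that a match of this kind is common. In Lx7_dup29484 the last AATAAA ends the copy, 25 bases before the annotated end of Rian, and the median read of L1ME4b_dup667 ended 15 bases after its AATAAA if its contig is numbered with the chromosome, which was not tested for this copy. All sequences are from the GENCODE transcripts of mm10, and copies outside annotated transcripts are named only.

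LINE reads were few against the depth of the libraries. The libraries held 120326 to 613756 PASS reads on nuclear transcripts, 375 to 2220 on LINE copies and 51 to 223 on young copies, with D2 replicate 1 the shallowest in each. Levels are given in RPM, reads per 1000000 reads on nuclear transcripts, the total being scaled by a trimmed-mean factor. The 12 libraries came from 13 sequencing runs of 1 day each, so that day and run cannot be told apart, and the names of the 3 D0 runs also carry the mark D2. The sample labels were checked with markers: the summed level of Pou5f1, Utf1 and Nanog was 1624 to 1922 at D0 and 0 to 12.1 on later days (Dppa5a and Zfp42 were at 0 throughout), while 5 neuronal markers summed to 450.1 to 496 at D0, 113 to 202 on D2, 869 to 1096 on D4 and 2052 to 2160.0 on D6. Of 4 glial and 5 mesoderm and endoderm markers Gata4, Sox17, T, Aqp4 and Olig1 were at 0 in every library, and Gfap and Gata6 had 1 and 9 reads. Mbp went from 23.3 RPM at D0 to 26.7 at D6 and Acta2 from 20.3 to 1.23. In bulk RNA, fewer cells with a transcript and less of it per cell cannot be told apart.

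Reads were concentrated on very few copies. Lx3B_dup3459 alone held 9768 of the 13834 old reads (70.6%), and L1Md_T_dup18258 held 636 of the 1638 young reads (38.8%). At the other end, 276 young copies (79.8%) and 1191 old copies (72.4%) had a single read each. The fewest copies that together held 50% of reads were 3 for young and 1 for old LINEs, against 186 for LTR elements and 1046 for SINEs, the other large repeat classes, where the leading copy held 2.47% and 1.48% of reads. Without its leading copy the old group was more evenly spread, with 120 copies for 50% of reads and 4.13% on the next copy. The young group was less so: its next copy, L1Md_F3_dup2030, held 17.6% of the remaining 1002 reads and 10 copies held 55.2%.

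**Figure D1:**
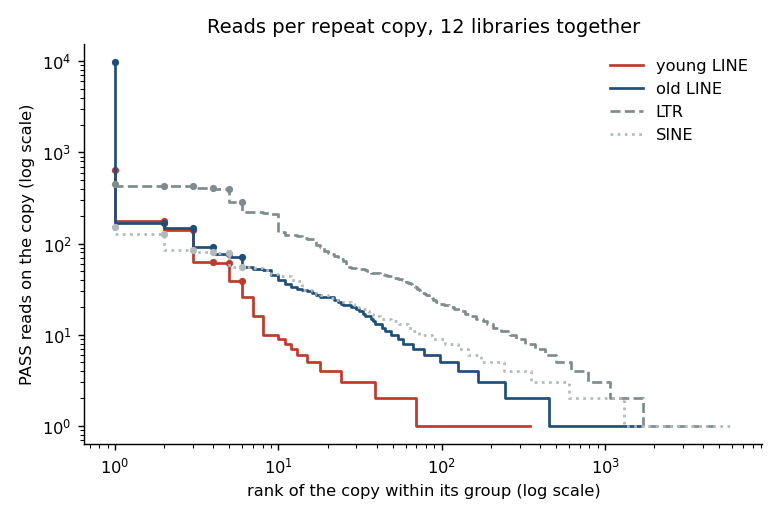
PASS reads on each repeat copy, summed over the 12 libraries, against the rank of the copy within young LINEs, old LINEs, LTR elements and SINEs, both axes on a log scale. The old curve starts at 9768 reads and drops to 168 at the next copy, the young curve starts at 636, and both end in a long run of copies with 1 read.

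Some families were as concentrated and others were not. Of the 5 young families, L1Md_T had 715 reads on 63 copies, 89.0% of them on L1Md_T_dup18258, and L1Md_F2 had 635 reads on 199 copies, with 22.4% on its leading copy. L1Md_F3 had 245 reads on 48 copies (71.8% on L1Md_F3_dup2030). L1Md_A, a family with mobile members, had 40 reads on 33 copies and at most 4 on any, and L1Md_F had 3 reads on 3 copies.
Among old families Lx3B led with 9783 reads, of which 99.8% were on Lx3B_dup3459, followed by Lx7 (469 reads on 64 copies), L1_Mus1 (370 reads on 107 copies), Lx (233 on 68), L2a (152 on 52) and Lx8 (151 on 106). The leading copy held 35.8% of the reads of Lx7, 34.9% of L2a, 21.9% of Lx and 8.65% of L1_Mus1. Lx8 was the opposite case to Lx3B, with no more than 5 reads on any of its copies. By age, rodent L1 families held 12253 reads (79.2% of LINE reads), mammalian L1 families 1167 (7.54%) and families other than L1 414 (2.68%).

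What the annotation places at the copies differed between the groups. Copies that overlap an annotated pseudogene were 17 of the old copies with 10028 reads (72.5%), and 10 of the young copies with 284 reads (17.3%). Of these young reads 176 were on L1Md_F3_dup2030, and at most 3.41% of them touched its pseudogene Gm5539 in either numbering of the contig, so most young reads counted here did not lie on a pseudogene. Copies in another annotated exon held 653 young reads (39.9%), nearly all on L1Md_T_dup18258, which contains Gm24187, and 937 old reads (6.77%). Introns held 321 young and 1187 old reads, and 380 young and 1682 old reads lay outside genes. Reads that also aligned to an annotated transcript made up 19.7% of young and 22.8% of old reads once the leading copy of each group was set aside. Of the same reads, 53.4% of young and 70.8% of old ones had alignments that ended within 50 bases of the last base of the copy. Alignments over more than 1000 bases made up 10.5% and 2.78%. An alignment cannot run past its copy and young copies were longer, so both shares depend on copy length. The longest alignment was 3766 bases on a young and 2937 bases on an old copy, short of a full L1 element.

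The old leader was examined next. Lx3B_dup3459 had 809, 1536 and 880 reads in the D0 libraries, 234, 636 and 348 on D2, 550, 1373 and 1031 on D4 and 519, 1168 and 684 on D6 (replicates 1 to 3). Its reads lay between bases 2462 and 3124 of the 5571 bases of the copy (5th percentile of starts to 95th percentile of ends), which is the place of Gm6472 whichever way the contig is numbered, and every read lay by at least 50% in its exons. Gm6472 (chrX:152909505-152910155, minus strand, transcribed processed pseudogene) is identical to the Rps7 transcript over 647 of 651 aligned bases (99.4%), and the sequences shown above hold 3 of the 4 differences. The table also lists Gm6472 under its own name, with 53 PASS lines. Only 20.4% of the reads on the copy had a mapping quality of at least 10, against 90.9% on L1Md_T_dup18258, and of the 4357 reads on Rps7 transcripts 6.13% did.

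**Figure D2:**
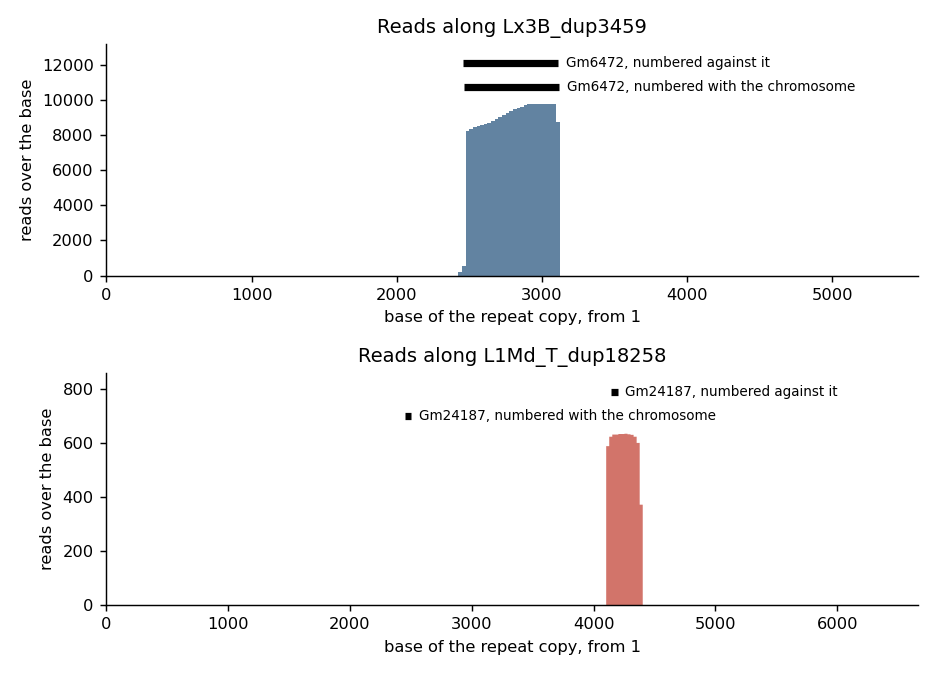
Reads over each base of Lx3B_dup3459 (top) and L1Md_T_dup18258 (bottom), 12 libraries together, in steps of 25 bases from the first base of the copy. Black bars mark the annotated gene inside each copy for both ways of numbering the contig: Gm6472 covers the reads of Lx3B_dup3459 in both, and Gm24187 lies under the reads of L1Md_T_dup18258 only if the contig runs against the chromosome.

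The split of reads between Lx3B_dup3459 and Rps7 followed the replicate number and not the day. Of the reads on either, 80.6% to 83.1% were on the copy in the 4 libraries of replicate 2, 52.8% to 61.6% in those of replicate 1 and 56.4% to 67.2% in those of replicate 3. The replicate 2 libraries did not overlap the others on any day (exact permutation of the numbers within days, p = 0.00926; over the 4 days, exact permutation p = 0.921; this comparison was chosen after the values were seen). Replicate numbers are also barcode numbers, so that culture and barcode cannot be told apart. The level of the copy had the same mark: it was 1907, 2765 and 1833 RPM at D0, 1895, 2572 and 1873 on D2, 2288, 3319 and 2389 on D4 and 1839.85, 2424 and 1844 on D6, replicate 2 being highest each time. The sum of the copy and Rps7 was closer between replicates: 3210 ± 191 RPM at D0, 3351 ± 222 on D2, 3941 ± 335 on D4 and 2969 ± 173 on D6 (mean ± SD, n = 3; exact permutation over the 4 days, p = 0.00682), with all D4 libraries between 3556 and 4168.

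**Figure D3:**
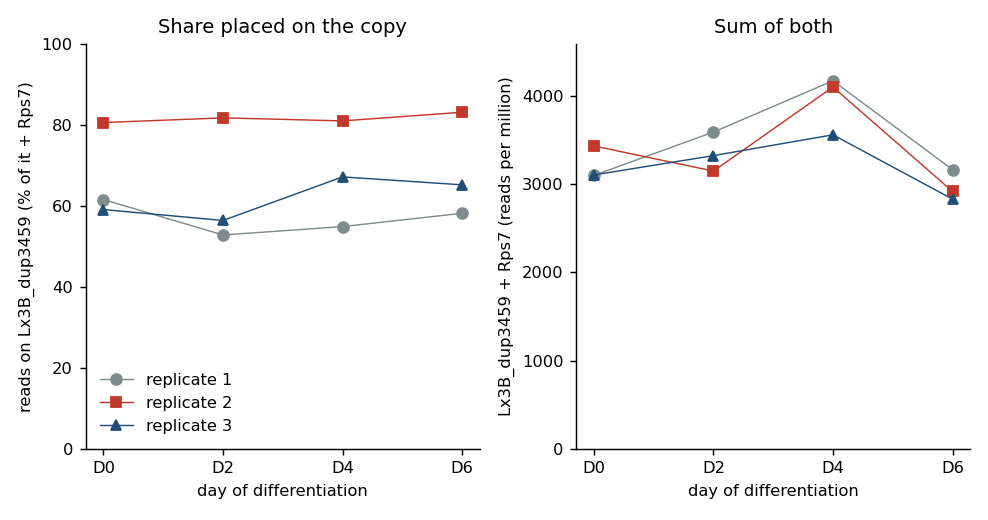
Left, reads on Lx3B_dup3459 as a percentage of the reads on it and on Rps7, for each day and replicate number; right, the sum of both in RPM. Lines join libraries of the same replicate number. Replicate 2 lies at 80.6% to 83.1% on all days and the others between 52.8% and 67.2%, while the sums lie between 2828 and 4168 with no fixed order.

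Reads on the copy also had shorter tails than reads on Rps7. The median tail was 68.8 to 95.6 nt on the copy and 89.4 to 128 nt on Rps7 over the 12 libraries, and the copy was lower in 12 of 12 libraries, with a mean difference of -26.1 ± 6.95 nt (SD over libraries; exact sign-flip permutation p = 0.000488, the smallest that 12 libraries allow). The aligned lengths were alike, with medians of 643 to 648 and 638 to 640 bases. The table does not say how a read that fits both contigs was assigned, and the part of such assignment in this difference was not tested.

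Other copies of both groups contain pseudogenes of mRNAs. The reads of the 4 copies named next lay on the pseudogene (77.8% to 100% of them, by at least 50% of their length) if the contig is numbered with the chromosome, and 0% did if it is numbered against it. L1_Mur2_dup15158 (72 reads) contains Gm6988, which is 97.6% identical to Rps25 over 375 bases. L1_Mus1_dup14975 (32 reads) contains Rps24-ps3, which is 99.0% identical to Rps24 over 402 bases, and Lx5_dup3006 (26 reads) contains Gm4332, 99.7% identical to Rps20. The young copy L1Md_F2_dup34671 (63 reads) contains Gm14719, a copy of Ppdpf that is 97.7% identical over 348 bases. Unlike Lx3B_dup3459 these copies held fewer reads than their parents, of which Rps20 had 20687, Rps25 14924, Rps24 14634 and Ppdpf 870.

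The young leader had a different make-up. L1Md_T_dup18258 had 71, 90 and 55 reads at D0, 24, 61 and 47 on D2, 59, 84 and 77 on D4 and 24, 20 and 24 on D6. They lay between bases 4104 and 4401 of its 6645 bases, in a block of about the length of their median alignment of 286 bases. Of these reads 99.8% overlapped Gm24187 if the contig runs against the chromosome, and 0% otherwise. The table gives no strand for the contigs. Of the 15 repeat copies with at least 10 reads whose reads lay on an annotated exon in 1 numbering only, 12 did so with the chromosome and 3 against it. All 6 of them that contain a pseudogene were among the 12, and Lx2_dup9050 was the 1 LINE copy among the 3. The direction of L1Md_T_dup18258 itself was not tested, and its reads are not ascribed to Gm24187 here. Part of the reads had a further alignment, counted here on lines of any tail tag. Of the 636 PASS reads of the copy, 148 (23.3%) also aligned to L1Md_F2_dup2636 (chr1:100176976-100182358, in an intron of Cntnap5b), and 67 to transcripts of Lars2, a mitochondrial leucyl-tRNA synthetase. In the other direction, 133 of the 142 PASS reads of L1Md_F2_dup2636 (93.7%) also aligned to L1Md_T_dup18258. The young copy L1Md_F2_dup46463 (chr11:106074296-106074819, outside genes) shared 36 of its 62 reads with the transcript of its neighbour Taco1. L1Md_F2_dup46999 (chr12:19861672-19864542, outside genes) had 39 reads of which 94.9% reached a mapping quality of 10, with a median alignment of 1135 bases. It stood at 5.27 ± 3.49 RPM at D0 and 17.5 ± 2.34 on D2 (log2 fold change 1.83 ± 0.63, limma-voom adjusted p = 0.0681), and at 7.13 ± 4.70 on D6 (limma-voom adjusted p = 0.572).

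The young and old groups were then compared over days. The young level was 408, 401 and 335 RPM at D0, 413, 562 and 522 on D2, 503, 413 and 405 on D4 and 291, 309 and 259 on D6. All 3 D6 libraries were below every other library and all D2 libraries were above those of D0. The mean at D6 was 286 ± 25.5 against 381 ± 40.1 at D0, a difference of -0.41 on the log2 scale (n = 3; exact permutation over the 4 days p = 0.00662, adjusted over 11 results 0.0135). The size depended on the scaling: it was -0.18 with plain library totals and -0.27 with all PASS reads as the total. The old level was 3037 ± 484 at D0, 2929 ± 364 on D2, 3557 ± 505 on D4 and 3243 ± 403 on D6 and did not pass (exact permutation p = 0.372, n = 3). Of the old reads 70.6% were on Lx3B_dup3459, whose level was highest in replicate 2 on every day. Against D0 alone, an exact permutation of 3 libraries against 3 cannot give less than p = 0.10, which the young level reached at D2 and at D6.

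As a share of LINE reads, which needs no scaling between libraries, young reads were 11.2% ± 1.36 at D0, 14.5% ± 0.989 on D2, 11.2% ± 2.32 on D4 and 8.13% ± 0.438 on D6 (n = 3; exact permutation p = 0.00857). The test of young against old itself, on the log2 ratio of young to old reads in each library, gave a change of -0.51 from D0 to D6 and of 0.43 from D0 to D2 (exact permutation over the 4 days p = 0.00753, adjusted over 11 results 0.0135, 3 of 3 D6 libraries below all D0 libraries). Without the first D2 run the share and the ratio no longer passed (exact permutation p = 0.0912 and 0.0626). Without the leading copy of each group the ratio changed by -0.56 from D0 to D6 (exact permutation p = 0.00266, n = 3) and the share by -5.69 points (exact permutation p = 0.00273, n = 3). With L1Md_T_dup18258 and L1Md_F2_dup2636 left out and Lx3B_dup3459 kept, the ratio changed by 0.01 (exact permutation p = 0.389, n = 3).

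Much of the difference in the young level lay in L1Md_T_dup18258. This copy stood at 167, 162 and 115 RPM at D0, 194, 247 and 253 on D2, 245, 203 and 178 on D4 and 85.1, 41.5 and 64.7 on D6, so that D2 and D4 lay above D0 and D6 below it without overlap. Its share of young reads was 38.5% ± 3.79 at D0, 46.5% ± 2.34 on D2, 47.3% ± 2.86 on D4 and 22.6% ± 8.20 on D6 (n = 3; exact permutation p = 0.000325).
The other 345 young copies together stood at 234 ± 11.03, 268 ± 48.4, 232 ± 24.1 and 222 ± 39.6 RPM, which did not pass (exact permutation over the 4 days p = 0.434, n = 3). The change from D0 to D6 was -0.07 on the log2 scale (0.17 with plain library totals). With L1Md_F2_dup2636, which shared most of its reads with the leader, also left out, the change was 0.12 (exact permutation p = 0.778, n = 3).

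The old copies other than the leader rose. Without Lx3B_dup3459 the old copies stood at 888, 829.7 and 889 RPM at D0, 729, 760.1 and 958 on D2, 886, 809.9 and 980.04 on D4 and 1255, 1276 and 1092 on D6. All D6 libraries were above every library of the other days, and the mean rose by 0.47 on the log2 scale from D0 to D6 (exact permutation over the 4 days p = 0.0103, n = 3; 0.71 with plain library totals and 0.50 with upper-quartile factors). By age, rodent L1 copies other than Lx3B_dup3459 went from 573 ± 18.2 to 693 ± 52.8 RPM (exact permutation p = 0.00123, n = 3), and mammalian L1 copies from 219 ± 30.9 to 382 ± 63.2 (exact permutation p = 0.0394, n = 3). Copies of families other than L1 went from 77.3 ± 19.5 to 133 ± 26.03, which did not pass (exact permutation p = 0.176, n = 3). These p-values of single sets are over the 4 days and were not adjusted for their number. On the same scale LTR reads changed by -0.09 (0.15 with plain library totals) and SINE reads by 0.18 (0.41 with plain library totals). Both classes also differed over the 4 days (exact permutation p = 0.000844 and 0.000325, n = 3, not adjusted).

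**Figure D4:**
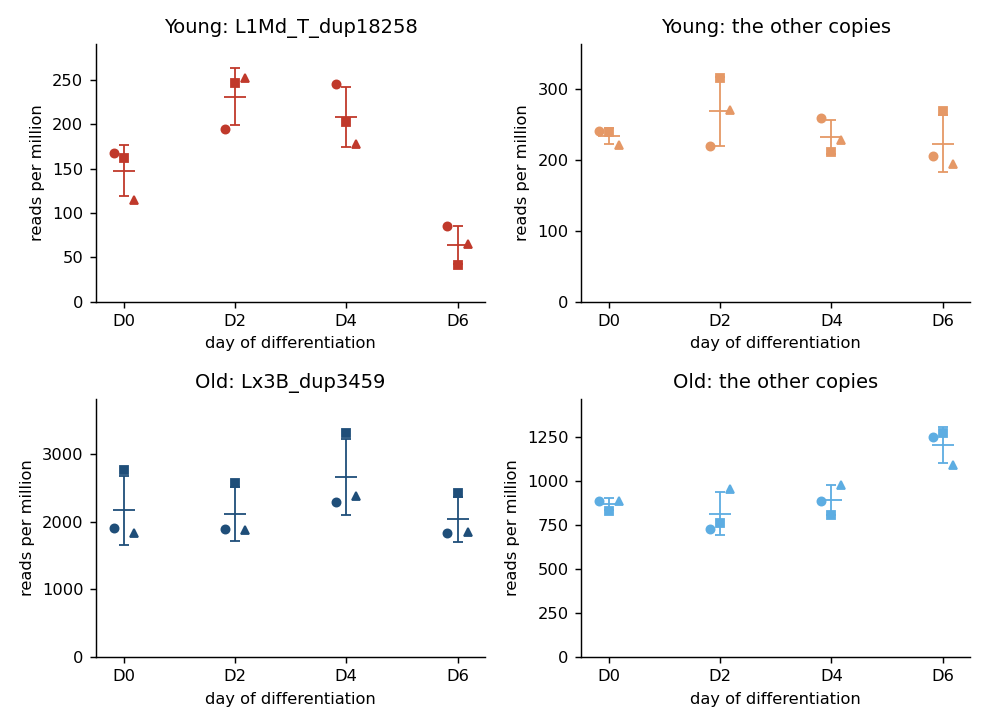
RPM in each library by day for L1Md_T_dup18258, the other young copies, Lx3B_dup3459 and the other old copies (circles, squares and triangles are replicates 1, 2 and 3; horizontal marks and bars are the mean ± SD of 3 libraries; each axis starts at 0). D6 is lowest for L1Md_T_dup18258 at 41.5 to 85.1 and highest for the other old copies at 1092 to 1276, and the replicate 2 libraries lead in Lx3B_dup3459.

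Single copies were tested next by limma-voom over all transcripts and repeat copies with at least 30 reads in all, the later days each against the same D0 libraries, with Benjamini-Hochberg adjustment over all of them. This left 22 of the 1992 LINE copies, 6 of them young. At D6, 7 of the 22 passed an adjusted p of 0.05, against 29.7% of all features tested. These were 3 higher (14.9% of all features were higher) and 4 lower (14.8% of all features were lower). Of the 7, L1ME4b_dup667, L2a_dup2023 and L1_Mus1_dup14975 had only 0, 27 and 5 reads outside the day on which they were higher, so that they reached the minimum of 30 only with the reads of that day. Lx7_dup19265 reached it only with the reads of D4 and D6 together, both days on which it was higher. All of these copies are given below as values, with no test. With plain library totals, which shifted the median log2 fold change of all features to 0.25, 10 passed (31.6% of all features), 6 higher (21.7%) and 4 lower (9.93%). At D4 3 of 22 passed against 20.3% of all features, 2 of them higher (10.5% of all features) and 1 lower (9.75%), the lower one being L1_Mus1_dup14975, for which the same limit holds. Leaving out 1 library gave 1 (of 19 without D0 replicate 3, of 20 without D4 replicate 2) to 6 (of 20 without D4 replicate 3). In these fits 1987 of 11727, 1861 of 11899 and 2115 of 11782 features passed. At D2 2 of 22 passed against 7.23%, both of them young copies that were higher (3.53% of all features were higher and 3.70% lower). By limma-trend neither passed, while 1 old copy was lower. The median log2 fold change of the 22 at D6 was 0.09, that of the 6 young copies -0.87 and that of the 16 old copies 0.36, beside 0.00 for all features. The share called among LINE copies at D6 was near that of all features, but it counts the copies given with no test. The median of the old copies also includes such copies and others that reached the minimum only through their higher day. No result about LINE copies is drawn from either.

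L1ME4b_dup667 in Mir9-3hg had reads at D6 alone. It had 0 reads in all 9 libraries of D0, D2 and D4 and 7, 22 and 16 reads at D6, at least 19.3-fold higher than D0 when D0 is set to 3 reads over its libraries. Lx7_dup19265 (chrX:20831529-20833720, in an intron of the kinase gene Araf) had 0, 0 and 2 reads at D0, 1, 0 and 4 on D2, 6, 9 and 10 on D4 and 9, 7 and 8 on D6. The ratio of D6 to D0 was 15.4 (95% exact counting interval 3.83 to 135; limma-voom adjusted p = 0.00018), and the copy was also higher at D4 (limma-voom adjusted p = 0.000153). L2a_dup2023 (chr2:35977438-35977727, in an intron of Ttll11, which encodes a tubulin-modifying enzyme) had 3, 1 and 5 reads at D0 and 9, 11 and 6 at D6, a log2 fold change of 1.98 ± 0.56 (SE), which was 1.31 without D0 replicate 2. The Ttll11 transcripts themselves had 5 PASS reads in all, but 22 of the 53 reads of L2a_dup2023 also aligned to them, counted on lines of any tail tag.

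The 4 lower copies included both young copies that share reads. L1Md_T_dup18258 rose at D2 (log2 fold change 0.69 ± 0.20, limma-voom adjusted p = 0.022) and fell at D6 (-1.29 ± 0.23, limma-voom adjusted p = 2.08e-05). L1Md_F2_dup2636 went the same way, with 18, 16 and 16 reads at D0, 10, 18 and 15 on D2, 12, 15 and 14 on D4 and 3, 5 and 0 on D6 (D2 1.20 ± 0.32, limma-voom adjusted p = 0.013; D6 -2.58 ± 0.59, adjusted p = 0.000588). Since 93.7% of the reads of L1Md_F2_dup2636 also aligned to L1Md_T_dup18258, it does not count as a separate case. At D2 neither copy was called by limma-trend, without D2 replicate 2 or without D2 replicate 3.
Lx3C_dup3477 (chrX:103024106-103024247, outside genes, 92 reads, of which 79 also aligned to the next Lx3C copy) stood at 37.1 ± 0.932 RPM at D0 and 9.42 ± 2.03 at D6 (-1.79 ± 0.44, limma-voom adjusted p = 0.00143). L1_Mus1_dup14975, the copy with the Rps24 pseudogene, had 4, 18 and 5 reads at D0 and 0 in all D6 libraries, which is at least 6.996-fold lower when D6 is set to 3 reads. Of its 27 D0 reads 18 came from replicate 2.

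The other leading copies showed no call at D6 with trimmed-mean factors and all libraries. With plain library totals Lx7_dup29484 (0.82, limma-voom adjusted p = 0.0196), Lx7_dup20089 (0.96, adjusted p = 0.036) and L1MC_dup2560 (1.12, adjusted p = 0.0492) were called higher, as were Lx7_dup29484 without D6 replicate 2 (0.83, adjusted p = 0.0378) and L1MC_dup2560 without D6 replicate 1 (1.19, adjusted p = 0.0339) with trimmed-mean factors. L1MC_dup2560 (chr8:117461244-117461357, outside genes, 77 reads) stood at 15.6 ± 6.93 RPM at D0 and 26.4 ± 10.9 at D6 (limma-voom adjusted p = 0.119). Lx3B_dup3459 was higher at D4 (0.31 ± 0.11, limma-voom adjusted p = 0.0396) and had -0.05 ± 0.11 at D6, where the sign turned with plain library totals (0.18). L1Md_F3_dup2030 (chr3:59763928-59770781, 176 reads) stood at 49.1 ± 6.92 RPM at D0 and 33.6 ± 21.2 at D6 (limma-voom adjusted p = 0.23). In D6 replicate 2 it had 28 reads against 6 and 8 in the others.
Lx7_dup29484 in Rian and Lx7_dup20089 (chrX:64498691-64498870, outside genes), both of 180 bases, have to be read together. No read of either reached a mapping quality of 10, and 89.8% of the reads on Lx7_dup20089 also aligned to Lx_dup18222, which adjoins Lx7_dup29484 in the same Rian exon. Their sum was 60.1 ± 8.85 RPM at D0, 60.6 ± 25.2 on D2, 78.2 ± 16.1 on D4 and 94.2 ± 10.6 on D6 (exact permutation over the 4 days p = 0.109, n = 3). Rian and Mir9-3hg are named on no line of the table, so the copies could not be set beside their host transcripts.

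Summed by family, 41 LINE families were tested by limma-voom, 4 of them young. At D6 8 passed, against 29.6% of all features, 6 of them higher (14.9% of all features) and 2 lower (14.8%). Of the higher ones, L1ME4b and Lx6 had 4 and 22 reads outside D6 and reached the minimum of 30 through D6, so they are given as values with no test. At D4 4 of 41 passed against 20.2%, 3 of them higher (10.2% of all features) and 1 lower (9.95%). Leaving out D4 replicate 2 left 1 of 38, beside 1853 of 11936 features. At D2 0 of 41 passed by limma-voom against 7.18% (3.38% higher and 3.80% lower), while 5 had an unadjusted p under 0.05 and 1 passed by limma-trend. With plain library totals 2 families passed at D2, both young and higher (5.07% of all features were higher), and at D6 9 were higher (21.8%) and 2 lower (9.88%). The median log2 fold change of the 41 at D6 was 0.43, that of the young families -0.19 and that of the old families 0.47, beside 0.00 for all features. Several of the 41 reached the minimum of 30 only with the reads of their higher day, more often D6 than D0. The medians carry that selection and are no test. The higher families were old. Lx7 had 37, 48 and 34 reads at D0 and 47, 60 and 55 at D6, a log2 fold change of 0.82 ± 0.20 (limma-voom adjusted p = 0.00106). Of its 469 reads, 315 were on Lx7_dup29484 and Lx7_dup20089 and 56 on Lx7_dup19265. The other 61 Lx7 copies, with 98 reads, stood at 20.01 ± 3.46 RPM at D0 and 29.6 ± 7.54 at D6. Their level did not pass (exact permutation over the 4 days p = 0.10013, n = 3). L2b had 3, 4 and 6 reads at D0 and 10, 14 and 11 at D6 (1.75 ± 0.44, limma-voom adjusted p = 0.00153). L1MB8 (1.56 ± 0.48, limma-voom adjusted p = 0.011) and L1M5 (1.14 ± 0.42, 0.033) rose on 64 and 63 reads. Lx6, with 41 reads, had 1.93 ± 0.62, and 1.48 without D0 replicate 2. The call on L1M5 rested on few libraries: by limma-voom it was not called without D0 replicate 2 or 3 or D6 replicate 1 or 2 (adjusted p of 0.0526 to 0.127). By limma-trend neither L1MB8 (1.52, adjusted p = 0.126) nor L1M5 (1.11, adjusted p = 0.207) was called, and L1MB8 was not called by limma-voom with each read name used a single time (1.23, adjusted p = 0.0553).
L1ME4b had 1, 0 and 1 reads at D0 and 7, 24 and 16 at D6, of which 45 were those of L1ME4b_dup667. The lower families were L1Md_T (-0.97 ± 0.21, limma-voom adjusted p = 0.000288) and Lx3C (-1.31 ± 0.39, limma-voom adjusted p = 0.00785), each led by a copy described above. Without D6 replicate 3 the family call on Lx3C was lost (-1.06, limma-voom adjusted p = 0.0691). L1Md_T without its leading copy stood at 22.3 ± 7.19 RPM at D0 and 25.2 ± 8.90 at D6. L1Md_A had 9.38 ± 6.18 at D0 and 12.8 ± 8.11 at D6 and L1Md_F2 137 ± 9.59 and 133 ± 19.9, neither of which passed (limma-voom adjusted p = 0.439 and 0.899).

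Tail lengths of LINE reads differed between days. The median tail of young reads was 94.2, 101.0 and 86.6 nt at D0, 49.2, 73.6 and 67.6 nt on D2, 55.5, 73.5 and 83.7 nt on D4 and 109, 122 and 110.04 nt on D6. Young tails were thus shorter at D2 and D4 than in any D0 library and longer at D6 (exact permutation over the 4 days p = 0.00162, n = 3). Old reads had 98.7 ± 0.349 nt at D0, 86.1 ± 1.72 nt on D2, 81.7 ± 1.03 nt on D4 and 88.7 ± 3.74 nt on D6 (exact permutation p = 0.00117, n = 3), with the medians of each later day below those of D0. With mean tails the old D6 libraries differed from D0 by -0.10 nt. Reads on nuclear transcripts had 103 ± 2.67, 97.2 ± 1.05, 96.7 ± 1.52 and 101.6 ± 1.03 nt.

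L1Md_T_dup18258 had short tails. Its median was 77.1, 67.3 and 67.5 nt at D0, 39.1, 44.9 and 52.7 nt on D2, 42.2, 42.9 and 59.5 nt on D4 and 73.8, 50.3 and 68.3 nt on D6 (exact permutation p = 0.0266, n = 3). It was below that of nuclear transcripts in 12 of 12 libraries, with a mean difference of -42.5 ± 11.4 nt (exact sign-flip permutation p = 0.000488), and 18.3% to 33.9% of its reads per library had tails under 30 nt, against 1.87% to 4.05% of reads on nuclear transcripts. Lx3B_dup3459 had 89.99 ± 4.89 nt at D0, 76.3 ± 1.14 nt on D2, 72.6 ± 2.59 nt on D4 and 70.3 ± 1.73 nt at D6 (exact permutation over the 4 days p = 0.000714, n = 3).
The remaining copies of both groups had long tails with no change that passed. Young copies other than L1Md_T_dup18258 and L1Md_F2_dup2636 had 119 ± 5.40, 112 ± 2.01, 121 ± 7.56 and 126 ± 6.44 nt (exact permutation over the 4 days p = 0.0939, n = 3), and old copies other than Lx3B_dup3459 had 125 ± 4.45, 125 ± 7.02, 130.2 ± 1.69 and 139 ± 8.82 nt (exact permutation p = 0.0532, n = 3). The old copies without their leader were above nuclear transcripts in 12 of 12 libraries, by 30.1 ± 8.10 nt (exact sign-flip permutation p = 0.000488).

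**Figure D5:**
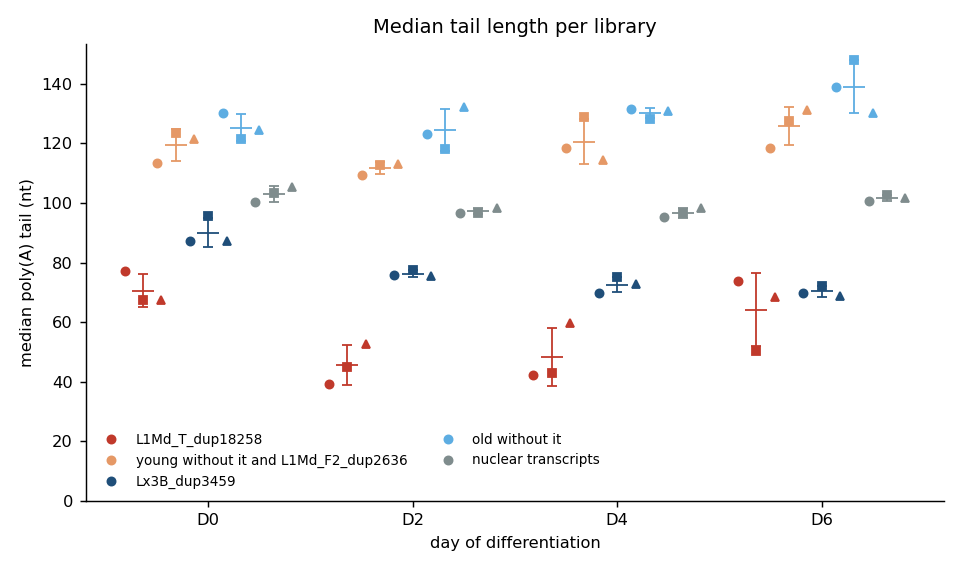
Median poly(A) tail length in nt per library by day for L1Md_T_dup18258, the young copies without it and L1Md_F2_dup2636, Lx3B_dup3459, the old copies without it, and nuclear transcripts (symbols as in the plot of levels; bars are the mean ± SD of 3 libraries). Both leading copies lie below nuclear transcripts in every library and the other copies of both groups above them.

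Whether young and old tails differ depended on these copies. Over all reads the young median was above the old one in 5 of 12 libraries, with a mean difference of -3.33 ± 20.5 nt (exact sign-flip permutation p = 0.581). By day the difference was -22.6 ± 14.04 nt at D2 and 24.9 ± 6.41 nt at D6. Without the leading copy of each group young tails were shorter in 11 of 12 libraries, with a mean difference of -23.8 ± 18.4 nt (exact sign-flip permutation p = 0.000977). With L1Md_F2_dup2636 also left out the difference was -10.4 ± 8.85 nt (exact sign-flip permutation p = 0.00488), and without the copies of both groups that contain a pseudogene as well it was 0.70 ± 14.6 nt (exact sign-flip permutation p = 0.871). The young reads left out in this last step were mainly those of L1Md_F3_dup2030, which did not lie on its pseudogene. With only L1Md_T_dup18258 and L1Md_F2_dup2636 left out, and Lx3B_dup3459 kept, the difference was 30.6 nt (exact sign-flip permutation p = 0.000488). With only the pseudogene copies left out it was -49.9 nt (exact sign-flip permutation p = 0.000488). Among old copies, rodent L1 reads other than those of Lx3B_dup3459 had shorter tails than mammalian L1 reads in 11 of 12 libraries, with a mean difference of -15.1 ± 18.3 nt (exact sign-flip permutation p = 0.0166, adjusted over 10 such differences 0.0208).

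The study looked at very short tails and at a class of intermediate length, taken here as under 30 nt and 30 to 90 nt. LINE reads of 30 to 90 nt made up 41.5% ± 1.79 at D0, 50.1% ± 0.462 on D2, 50.7% ± 0.255 on D4 and 45.7% ± 2.41 on D6 (n = 3; exact permutation p = 6.49e-05), with all D2 and D4 libraries above every D0 and D6 library. Reads under 30 nt were 3.26% ± 0.198, 5.13% ± 0.982, 5.71% ± 1.18 and 3.85% ± 0.312 (n = 3; exact permutation p = 0.0311, and 0.0521 to 0.0699 when 1 of the D0 replicates was left out). Without the leading copies both D6 differences from D0 turned negative, to -6.38 and -1.24 points.

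Genes known to act on LINE-1 were read from a list of 23, which was written with earlier results of these data known. Of 18 with enough reads, 1 was higher and 7 lower at D6 by limma-voom, and 10 were not called. Among all features 29.7% were called, 14.9% higher and 14.8% lower. Of the 7, L1td1, Dnmt3b and Tet1 had 2, 7 and 12 reads outside D0 and reached the minimum of 30 through D0, so they are given with no test. L1td1, a gene derived from an L1 open reading frame and active in pluripotent cells, stood at 81.6 ± 11.2 RPM before induction and at 0 reads on D6, which is at least 29.8-fold lower than D0.
Among genes of silencing, Trim28, the corepressor of KRAB zinc finger proteins, fell (-0.79 ± 0.13, limma-voom adjusted p = 6.8e-06), as did Mphosph8 of the HUSH complex (-0.84 ± 0.31, limma-voom adjusted p = 0.0322), while Morc2a, which works with HUSH, rose (0.72 ± 0.25, limma-voom adjusted p = 0.0253). Of the DNA methylation enzymes, the de novo methyltransferase Dnmt3b went from 34 reads on D0 to 0 on D6, which is at least 8.81-fold lower, and Tet1, which oxidizes methylcytosine, had 24 and 3 reads. Dnmt1 had -0.05 ± 0.34 and Dnmt3a -0.69 ± 0.28 (limma-voom adjusted p = 0.934 and 0.0572). The RNA-binding proteins Ncl (-1.41 ± 0.15, limma-voom adjusted p = 1.08e-10) and Ptbp1 (-0.89 ± 0.20, limma-voom adjusted p = 0.000465) fell. Others of this kind in the list had positive values that did not pass: Matr3 0.42, Safb 0.41 and Hnrnpl 0.26 (limma-voom adjusted p = 0.0529, 0.229 and 0.495). Mov10, Pphln1 and Trex1 had 16, 27 and 2 reads, too few to test, and no read was named for Tex19.1 or Fam208a.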

How the data were processed

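The per-read table deposited by the authors was analysed for 12 libraries of P19 cells, 3 per day. Per the methods, the authors called bases with Guppy, separated barcodes with Deeplexicon, aligned reads to mm10 with GENCODE genes by minimap2 2.20 and estimated tails with Nanopolish. The contigs of the deposited table are transcripts and repeat copies, and how the repeat copies were added is not given in the sources used here. Each line of that table gives 1 alignment with the tail length in nt, as the authors deposited it, and a mapping quality score from the authors' aligner. A further deposited table holds only the authors' own comparisons (log2 fold changes and p-values from DESeq2) and was not used here.

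Of 6306434 lines, 69 were malformed and 289260 unassigned, and 4673531 had the tag PASS. Lines were tallied per contig and library, so the counts were made here. Of the 15472 LINE lines, 296 repeated a read name already on another LINE copy. Levels are RPM (reads per 1000000 nuclear-transcript reads), scaled by trimmed-mean factors (30% of ratios and 5% of levels trimmed). The tallies were tested with limma-voom (limma 3.58.1, R 4.3.3; pseudocount 0.5, minimum 30 reads, Benjamini-Hochberg adjustment, adjusted p of at most 0.05), fitted to all 12 libraries and tested on simulated data. Other values were tested by exact permutation of libraries over days (369600 assignments) or exact sign flips within libraries, all two-sided (Python 3.11.15, scipy 1.17.1). P-values measure the spread between the libraries, and intervals and floors cover counting error only. Genes at the copies came from a GENCODE annotation of mm10, and pseudogenes were matched to coding transcripts with minimap2 2.31-r1302.

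Named are the 6 families and the 6 copies with most reads in each group, the 5 highest and 5 lowest called at D6, and a list of LINE regulators. Other pseudogene copies, host genes and Lx2_dup9050 were named after their values were seen. The members and lists were chosen with earlier results of these data known. Alternatives covered mapping quality, repeated read names, leading copies, annotated exons, scaling, filters, tail limits, single libraries and runs, and replicate numbers as a block.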

Additional observations from a re-analysis of the deposited data

Results flagged for a closer look

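The change from D0 to D6 differed between young and old LINE reads. The log2 ratio of young to old reads went from -2.99 ± 0.195 at D0 to -3.50 ± 0.0844 at D6 (SD, n = 3), a difference of -0.51, and every D6 library was below every D0 library (exact permutation over the 4 days p = 0.00753, adjusted over 11 results 0.0135). Without the leading copy of each group the difference was -0.56 (exact permutation p = 0.00266), without pseudogene copies -0.98 (exact permutation p = 0.00169) and with a mapping quality of at least 10 -0.86 (exact permutation p = 0.00227). Without L1Md_T_dup18258 and L1Md_F2_dup2636 it was 0.01 (exact permutation p = 0.389), and with the pseudogene copies left out as well -0.21 (exact permutation p = 0.753).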

How the results depend on the processing

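Values here are D6 minus D0 (levels in log2, shares in points, tails in nt) or, for young minus old tails, the mean over 12 libraries, with the exact permutation p over days or exact sign-flip p in brackets. Of 303 comparisons of 11 values, 243 kept direction and call and 26 turned direction; of 627 of 32 named copies and families, 586 and 21. The cause of the changes below was not tested. With a mapping quality of at least 10 the old tail was 9.12 (0.105), young minus old -23.1 (0.00146), tails under 30 nt -1.13 (0.00234) and of 30 to 90 nt -3.74 (0.075). Without the leading copy of each group the young level was -0.070 (0.434), the old level 0.47 (0.0103), young tail 17.0 (0.0644), old tail 13.8 (0.0532), young minus old -23.8 (0.000977), under 30 nt -1.24 (0.0348) and 30 to 90 nt -6.38 (0.0241). Without copies in annotated exons the young level was 0.026 (0.247), old level 0.53 (0.00981), old tail 13.7 (0.134), young minus old -21.0 (0.0161), under 30 nt -1.73 (0.0408) and 30 to 90 nt -7.16 (0.0156). Young minus old was 0.21 (0.958) with each read name used a single time, -19.4 (0.0146) with L1Md_F families as old and 0.28 (0.949) with mean tails. With each copy of at least 5 reads weighted equally, young tail was 12.1 (0.181), old tail -2.33 (0.49) and young minus old -25.8 (0.00293). Class limits 5 nt lower gave -0.0465 (0.0193) under the short limit and 5 nt higher 1.51 (0.0548). Without run 1 of D2 the young share was -3.11 (0.0912) and the young to old ratio -0.51 (0.0626).

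Chosen after seeing the data were the settings without pseudogene copies, without L1Md_T_dup18258 and L1Md_F2_dup2636, without both, and days permuted within replicate numbers. Without pseudogene copies the old level was 0.55 (0.00844), old tail 13.2 (0.141), young minus old -49.9 (0.000488), under 30 nt -2.36 (0.005) and 30 to 90 nt -8.37 (0.00351). Without L1Md_T_dup18258 and L1Md_F2_dup2636 the young level was 0.12 (0.778), share 0.0132 (0.408), ratio 0.0066 (0.389), young tail 6.35 (0.0939) and young minus old 30.6 (0.000488). Without all of these the young level was 0.34 (0.388), old level 0.55 (0.00844), share -1.70 (0.743), ratio -0.21 (0.753), young tail 14.9 (0.397), old tail 13.2 (0.141), young minus old 0.70 (0.871), under 30 nt -0.771 (0.376) and 30 to 90 nt -6.20 (0.0536).

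The labels tie replicate numbers to no shared culture, and over 2537 contigs the deviations of same-numbered libraries correlated at -0.27 to 0.29 (median -0.0035, 18 pairs), so the block was not used, although the split of reads between Lx3B_dup3459 and Rps7 followed the number. With the replicate number as a block, an exact sign-flip permutation over 3 numbers cannot give less than p = 0.25, and gave it for the young level (-0.41), share (-3.11), ratio (-0.51), young tail (19.7), old tail (-10.02), under 30 nt (0.589), 30 to 90 nt (4.198) and leading young copy (-15.96). Days permuted within the replicate block gave 0.095 for the old level (0.00694) and -8.23 for the leading old copy (0.0122), which did not pass unblocked. By limma-voom with the replicate block 7 of 22 copies were called at D6 and 5 at D4. Of all 12477 features 3697 and 2552 were called.

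Leaving out 1 library at a time gave -0.50 to -0.35 for the young level, -0.010 to 0.23 for the old level (-0.010 without D6 replicate 2), -3.72 to -2.37 for the share, -0.60 to -0.41 for the ratio, 15.6 to 23.2 and -11.1 to -7.86 for young and old tails, -6.44 to -0.176 for young minus old, 0.421 to 0.729 under 30 nt (exact permutation p of 0.0521, 0.0699 and 0.0615 without D0 replicates 1, 2 and 3), 2.81 to 5.19 for 30 to 90 nt, -19.3 to -11.4 and -9.97 to -5.18 for the leading young and old copies, 5 to 8 copies and 6 to 10 families called at D6, and 1 to 6 copies and 1 to 4 families at D4. The fitted D6 change ranged from -0.18 to 0.18 for Lx3B_dup3459, -0.20 to 0.18 for Lx3B, -0.085 to 0.12 for L1Md_F2 and -0.10 to 0.42 for L1_Mus1; plain library totals gave 0.18, 0.18 and 0.20 for the first 3, and L1Md_F2 gave 0.22 with each read name used a single time. Copies called at D6 went from 7 to 24 without a filter and 13 with at least 10 reads (9.62% and 22.7% of all features), at D4 from 3 to 14 and 9 (5.95% and 14.7%), and at D2 from 2 to 1273 and 4 (35.8% and 5.77%). With 1 library left out, calls among all transcripts and repeat copies ranged from 2861 of 11613 to 3709 of 11782 at D6. At D4 they ranged from 1861 of 11899 to 2553 of 12038. Depth limited the copies to 22 of 1992 with at least 30 reads.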
